A study of Mus musculus with 10 samples.

Results

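Galectins are soluble lectins that bind galactose-containing sugars on glycoproteins and glycolipids. The galectin genes described here were Lgals1, Lgals3, Lgals8 and Lgals9, taken as every probe set annotated to a single one of those symbols. These 4 genes, of 18193 genes represented in the value table, had 6 probe sets. The 4 genes were chosen with values from these same arrays known, across all 5 groups, so their levels and differences are given as a description. Where the fit across all genes called a galectin, the call is counted beside the share of all genes called and is no evidence about the galectins. All 4 were among the 11321 genes kept for fitting, those that exceeded the median of an array on 2 or more arrays.

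The samples were CD4+ T cells from mouse spleen, profiled on 10 Affymetrix arrays in 5 groups of 2. All cells were stimulated through CD3 and CD28, transduced with a retrovirus that carries an NGFR marker, and sorted as NGFR+. Scurfy Foxp3 and scurfy mock arrays came from GFP+ cells of DEREG/Scurfy mice that received the Foxp3 virus or a mock virus, and the sample titles call both epigenetics(+). Treg mock arrays came from GFP+ cells of DEREG mice with empty virus, and are titled Foxp3(+)epigenetics(+). Tconv Foxp3 and Tconv mock arrays came from GFP- cells of DEREG mice with the Foxp3 virus or empty virus, titled epigenetics(-). The DEREG transgene places GFP under the Foxp3 promoter, and scurfy mice carry a mutated Foxp3 gene, so GFP marks an active promoter and not a working protein. The strain field reads DEREG on Balb/c for all 10 arrays, and the D_S of the scurfy descriptions was read as DEREG/Scurfy. No age is given, and no label says whether replicates stem from different animals or cultures. Their spread, and every p-value based on it, may thus be technical.

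Galectins are made without a signal peptide and leave the cell by an unconventional route. Galectin-1 forms dimers, galectin-3 joins its lectin domain to a tail that lets it oligomerise, and galectin-8 and galectin-9 each carry a pair of different lectin domains. In T cells galectin-1 is known for its part in Treg suppression and in the death of activated cells. Galectin-3 is known for cross-linking branched N-glycans on the T cell receptor, galectin-9 as a ligand of TIM-3, and galectin-8 as a sensor of damaged vesicles.

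All 7 T cell markers, Cd4 among them, were above the array median on all 10 arrays. Scurfy replicates were the least alike: 15.8% of genes in scurfy Foxp3 and 14.2% in scurfy mock lay over 1 log2 unit apart between the replicates, against at most 11% elsewhere. The scurfy arrays did not group by label: scurfy Foxp3 array 1 and scurfy mock array 2 correlated best with each other over the genes kept (r = 0.974), above their own replicates (0.953 and 0.920), and scurfy mock array 1 was also closest to scurfy Foxp3 array 1. This bears on every value of scurfy Foxp3 against scurfy mock, and values with arrays left out are given for each galectin. Array medians ran from 18.8 to 36.5, and no scaling was added. On the log2(intensity + 16) scale used throughout, the median of all genes relative to Tconv mock was 0.19 for Treg mock, 0.22 for scurfy mock and 0.26 for Tconv Foxp3. After quantile normalization these medians lay between -0.05 and 0.01. These 3 comparisons share the Tconv mock arrays. The Foxp3 probe set read 18.0 and 18.9 on the arrays labelled Tconv Foxp3, against 53.9 and 35.9 on Tconv mock arrays. It read 948 and 691 on the arrays labelled scurfy Foxp3, against 1188 and 1114 on scurfy mock arrays. It thus did not show the label's transgene, and its place in the transcript is not given. The Treg markers listed were Foxp3, Ikzf2, Il2ra and Ctla4. Of these 4, 3 were lower and 1, Ikzf2, higher in Tconv Foxp3 than in Tconv mock, with 0 called, beside 0.0883% of all genes. Ctla4 read 1676 and 804 in Tconv Foxp3, against 3336 and 2031 in Tconv mock, and Il2ra 6657 and 5518, against 7507 and 7422. In scurfy Foxp3 against scurfy mock 3 were higher and 1 lower, with 0 called, beside 0.0353%. The names Tconv Foxp3 and scurfy Foxp3 below thus follow the labels alone.

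Lgals3, which encodes galectin-3, had the largest gap of the 4 between Tconv Foxp3 and the other groups. Its gene lies on chromosome 14 (47373860 to 47386167, GRCm38.p6). The stretch before its start is shown because this is the member whose level differed most, and because Foxp3 belongs to the forkhead factors. These are the 250 bases upstream of the RefSeq start at chr14:47373610-47373859 (GRCm38.p6, plus strand), with the letters of a GC box in capitals.
Lgals3 upstream: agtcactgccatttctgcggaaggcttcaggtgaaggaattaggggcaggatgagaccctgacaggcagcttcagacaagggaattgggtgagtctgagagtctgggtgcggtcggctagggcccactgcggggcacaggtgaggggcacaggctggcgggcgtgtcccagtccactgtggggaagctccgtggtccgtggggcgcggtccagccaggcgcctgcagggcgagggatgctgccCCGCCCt
RefSeq windows of 300 bases, with 250 before the start and 50 after it, were at hand for Lgals3, Lgals8 and Lgals9, so 3 of 4 members matched. Read on both strands, the Lgals3 window held the GC box letters GGGCGG at positions -7 to -2 and again at 5 to 10 relative to the start base, and 35.7% of 32851 windows held them. The forkhead letters GTAAACA (3.65% of windows) and the AP-1 letters TGANTCA (7.81%) were not in this window. The Lgals9 window held none of the letters searched. The Lgals8 window belongs to a start inside the gene span given below and is not described.

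The Lgals3 probe set read 75.2 and 55.0 in Tconv Foxp3, against 1477 and 678 in Tconv mock. Both Tconv Foxp3 arrays lay below every other array of the series, and above their own array medians of 24.3 and 24.1. On the log2 scale Tconv Foxp3 averaged 6.33 ± 0.26 and Tconv mock 9.99 ± 0.78 (SD, n = 2 each). The difference was -3.66 (SE 0.43), or 12.6-fold lower, and -3.92 relative to the median of all genes. Among 11321 genes, 7 had a lower difference. In the bulk RNA of these arrays fewer cells with the transcript and less transcript per cell cannot be told apart.

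Scurfy Foxp3 arrays had Lgals3 at 836 and 1093, against 900 and 595 in scurfy mock. These groups overlapped, and their difference was 0.38 (SE 0.43). For Lgals3 the scurfy Foxp3 minus scurfy mock difference exceeded that of Tconv Foxp3 minus Tconv mock by 4.04 (SE 0.61). This value is named the difference of the vector effects after the labels alone, and 12 genes had a higher one. No gene was called in that difference at an adjusted p under 0.05 by limma, 0% of those tested, with 915 at an unadjusted p under 0.05. The eBayes fit with trend and robust options called 1 gene there, which was no galectin.

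Treg mock arrays had Lgals3 at 764 and 1288, inside the range of Tconv mock (difference -0.01, SE 0.43). Scurfy mock also overlapped Tconv mock (difference -0.44, SE 0.43), and that difference was 0.11 without Tconv mock array 1. From high to low, the order of mean log2 levels was Tconv mock, Treg mock, scurfy Foxp3, scurfy mock and Tconv Foxp3. The first 4 each overlapped the next, and a gap of 3.22 set Tconv Foxp3 below scurfy mock. The Tconv mock replicates differed more than those of any other group, so the Treg mock difference was 0.54 without Tconv mock array 1, 0.36 without Treg mock array 1 and between -0.57 and 0.54 over all 10 fits that left out an array.

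**Figure D1:**
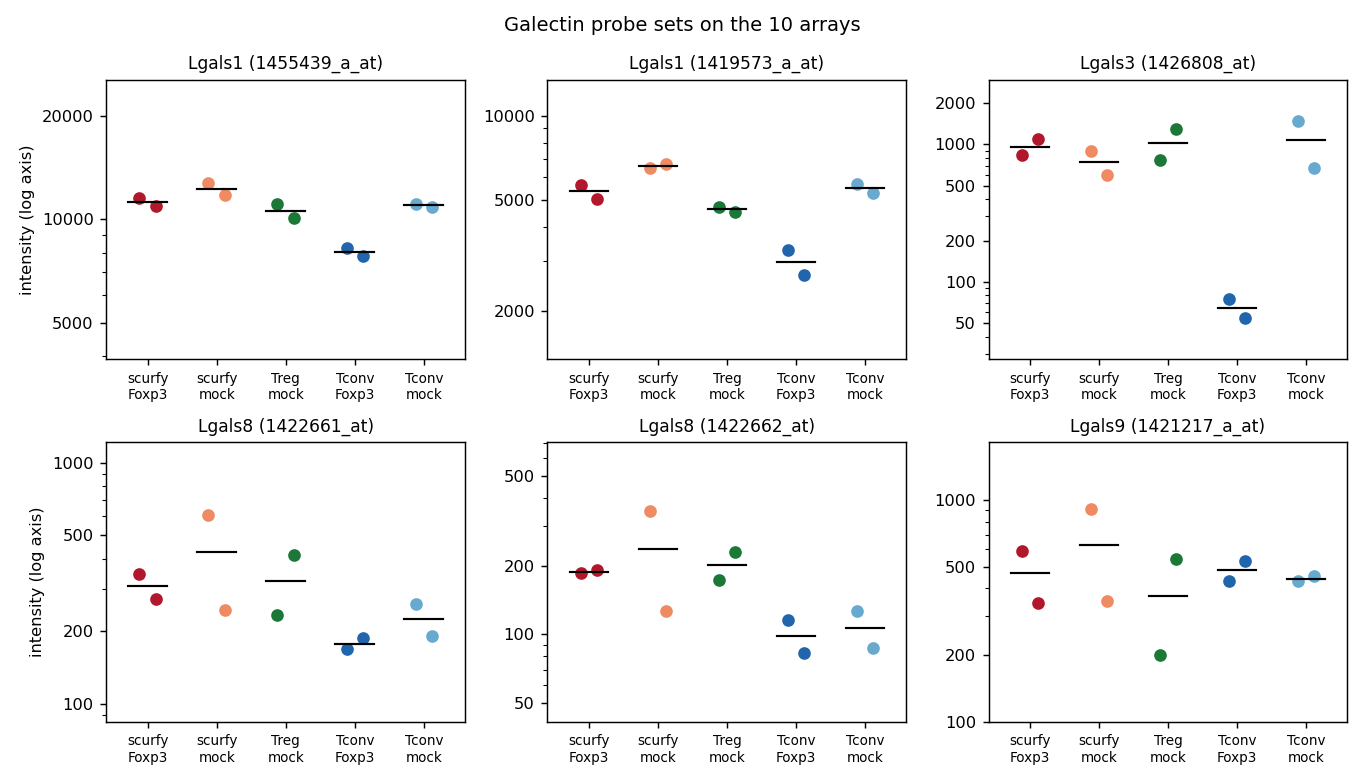
Intensity of the 6 galectin probe sets on each of the 10 arrays, on log axes that differ between panels, with points for arrays and a line for the mean of each group of 2. Lgals3 lies at 75.2 and 55.0 in Tconv Foxp3 and at 595 or more on all other arrays.

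Lgals3 is also a well known macrophage product, so myeloid markers are given beside it. Of 11 such markers, 3 and 4 were above the array median on the Tconv Foxp3 arrays, against 4 and 3 on the Tconv mock arrays. On both scurfy Foxp3 arrays 6 were, against 3 and 6 on the scurfy mock arrays, and 2 and 5 on the Treg mock arrays. Lyz2, Cd14 and Itgam were above the median on none of the 10 arrays. Csf1r read 11.2 and 24.9 in Tconv Foxp3, against 31.5 and 21.5 in Tconv mock, where both arrays were above their median. Cybb was higher, at 51.7 and 64.2 in Tconv Foxp3, against 0.784 and 5.31 in Tconv mock. So was Fcer1g, at 11.9 and 17.3 in Tconv Foxp3, against 1.37 and 5.38 in Tconv mock, but each value lay below its array median. Cd68, above the array median throughout, had a lower mean in Tconv Foxp3 with overlap. It read 27.9 and 39.4 there, against 102 and 35.3 in Tconv mock. Of the 7 myeloid markers kept, 3 were higher and 4 lower in Tconv Foxp3, with 0 called, beside 0.0883% of all genes. Tyrobp read 284 and 383 in scurfy Foxp3, against 13.3 and 39.5 in scurfy mock, and Fcer1g read 127 and 118 in scurfy Foxp3, against 10.7 and 29.0 in scurfy mock. The summed intensity of the list was 831 and 1073 in Tconv Foxp3, against 1936 and 1083 in Tconv mock, and ran from 1992 to 4652 over the other 6 arrays. Most of that sum was Ctss, the protease cathepsin S, at 690 and 887 in Tconv Foxp3, against 1732 and 992 in Tconv mock. The part of such cells in the Lgals3 difference was not tested.

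Lgals1, which encodes galectin-1 (chromosome 15, 78926725 to 78930465), was also lowest in Tconv Foxp3. Its main probe set, the one with the highest mean, read 8251 and 7823 in Tconv Foxp3, against 11113 and 10900 in Tconv mock. The groups did not overlap, and the difference was -0.45 (SE 0.24), or -0.71 relative to the median of all genes. Its other probe set read 3305 and 2682 in Tconv Foxp3, against 5694 and 5298 in Tconv mock, and gave a difference of -0.88 (SE 0.25), 1.84-fold lower. Both probe sets had the same sign, with sizes more than 1.5 times apart.

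In Treg mock the main Lgals1 probe set read 11104 and 10077, which overlapped Tconv mock (difference -0.06, SE 0.24). The other probe set read 4711 and 4527 in Treg mock, below both Tconv mock arrays (difference -0.25, SE 0.25). Scurfy mock stood highest with both, at 12784 and 11743 for the main probe set, and its difference from Tconv mock was 0.15 (SE 0.24), but -0.07 relative to the median of all genes and -0.17 with arrays scaled to a common 75th percentile. Scurfy Foxp3 read 11546 and 10908 for Lgals1, just below scurfy mock without overlap (difference -0.13, SE 0.24). The main probe set ordered the groups as scurfy mock, scurfy Foxp3, Tconv mock, Treg mock and Tconv Foxp3. The 3 middle groups overlapped in turn, and Tconv Foxp3 stood 0.40 below Treg mock.

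Lgals8, which encodes galectin-8 (chromosome 13, 12439402 to 12464977), had its highest mean levels in GFP+ cells. Its main probe set read 346 and 272 in scurfy Foxp3, against 606 and 245 in scurfy mock. It read 234 and 413 in Treg mock, 169 and 187 in Tconv Foxp3 and 260 and 190 in Tconv mock. With this probe set scurfy mock and Treg mock each had a high array beside a low one, and both overlapped Tconv mock. The other probe set read 174 and 230 in Treg mock and 352 and 127 in scurfy mock, against 126 and 87.3 in Tconv mock. There neither overlapped Tconv mock, although scurfy mock array 2 lay close to Tconv mock array 1. The differences from Tconv mock were 0.76 in scurfy mock and 0.46 in Treg mock, while that of Tconv Foxp3 was -0.30 (SE 0.44 each). Relative to the median of all genes they were 0.53, 0.27 and -0.56. Without that median subtracted, the other probe set gave 0.92, 0.83 and -0.09 (SE 0.43 each) for the same comparisons. Without scurfy mock array 1 the scurfy mock difference was 0.13, and without Treg mock array 2 that of Treg mock was 0.07.

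Between the Foxp3 and mock arrays of scurfy cells Lgals8 differed by -0.32 (SE 0.44), and by 0.31 without scurfy mock array 1. From high to low the Lgals8 means ran scurfy mock, Treg mock, scurfy Foxp3, Tconv mock and Tconv Foxp3. The first 3 overlapped in turn, scurfy Foxp3 lay 0.44 above Tconv mock without overlap, and the Tconv groups were 0.30 apart without overlap for the main probe set but overlapped for the other.

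Lgals9, which encodes galectin-9 (chromosome 11, 78962979 to 78984924), had no group that stood clear of its neighbours. It read 592 and 343 in scurfy Foxp3, against 913 and 350 in scurfy mock. It read 200 and 541 in Treg mock, 433 and 533 in Tconv Foxp3 and 431 and 453 in Tconv mock. Each group overlapped its neighbour in the order scurfy mock, Tconv Foxp3, scurfy Foxp3, Tconv mock and Treg mock. The difference from Tconv mock was 0.35 in scurfy mock, -0.40 in Treg mock and 0.12 in Tconv Foxp3 (SE 0.54 each), and scurfy Foxp3 minus scurfy mock was -0.32. Leaving out a single array turned the sign of each. Without scurfy mock array 1 the values were -0.32 for scurfy mock and 0.35 for scurfy Foxp3 minus scurfy mock. Without scurfy Foxp3 array 2 that last value was 0.06. Without Treg mock array 1 Treg mock stood at 0.28, and without Tconv Foxp3 array 2 Tconv Foxp3 stood at -0.03. Tconv Foxp3 was also negative under quantile normalization (-0.21) and a common 75th percentile (-0.19).

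**Figure D2:**
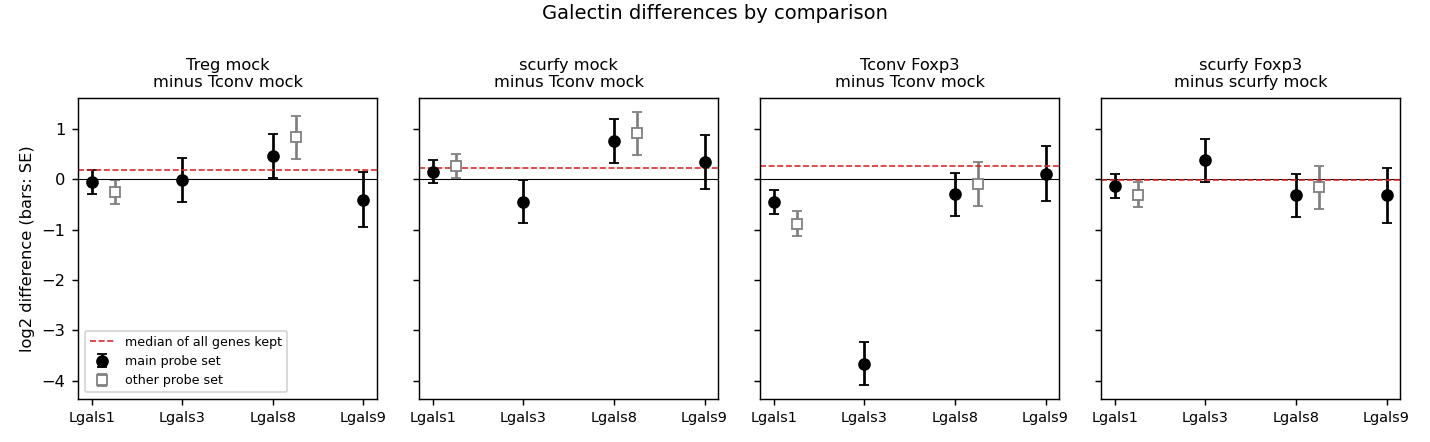
Difference between group means (log2 scale, bars show the SE) for each galectin in the 4 comparisons between groups, with filled circles for the main probe set, open squares for the other one and a dashed line at the median of all genes. Lgals3 at -3.66 in Tconv Foxp3 minus Tconv mock lies furthest from its line.

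Counted over the comparisons, the 4 galectins had a median difference of -0.38 in Tconv Foxp3 against Tconv mock, beside 0.26 for all genes. In that comparison 3 of 4, namely Lgals1, Lgals3 and Lgals8, were lower without overlap, beside 11.6% of all genes lower and 47.5% higher in that way. This counts the main probe sets, and Lgals8 overlapped with its other one. limma called 1 of 4, Lgals3, at an adjusted p under 0.05, beside 0.0883% of all genes in either direction. Nothing is read from these counts, since the genes were chosen with these values known. That call ended in 6 of 10 fits that left out an array, namely either scurfy Foxp3 array, either Tconv Foxp3 array or either Tconv mock array, with differences from -4.21 to -3.11 over all 10. It also ended with no filter on low genes and without the 4 scurfy arrays, each at -3.66.

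limma called 0 of 4 galectins in Treg mock against Tconv mock, beside 1.12% of all genes, while 1749 genes were at an unadjusted p under 0.05. It called 0 of 4 in scurfy mock against Tconv mock, beside 0.574% of all genes and 1569 at an unadjusted p under 0.05. In scurfy Foxp3 against scurfy mock it called 0 of 4, beside 0.0353% of all genes and 477 at an unadjusted p under 0.05. By the main probe sets, groups that did not overlap held 0 of 4 galectins in Treg mock. Of all genes, 35.2% were higher and 16.3% lower in that way. With their other probe sets Lgals1 lay below and Lgals8 above Tconv mock there without overlap. Lgals1 was the 1 of 4 that lay higher in scurfy mock than in Tconv mock without overlap (38.8% of all genes higher, 12.1% lower). With its other probe set Lgals8 also lay higher there, at 127 or more against 126 or less. Lgals1 was also the 1 of 4 that lay lower in scurfy Foxp3 than in scurfy mock (13.9% of all genes higher, 8.86% lower). The medians of the galectins in these comparisons were -0.03, 0.25 and -0.22, beside 0.19, 0.22 and -0.02 for all genes.

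**Figure D3:**
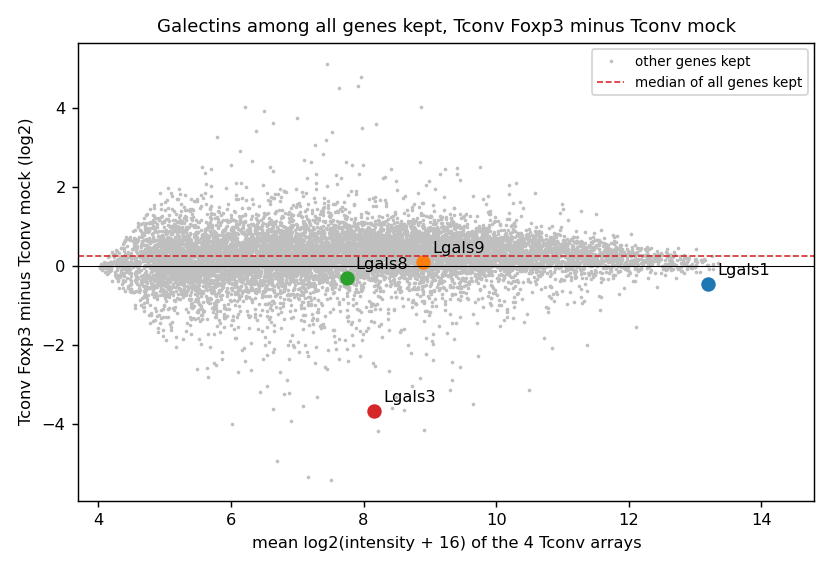
Tconv Foxp3 minus Tconv mock for the 11321 genes kept (log2 difference, vertical) against the mean log2(intensity + 16) of the 4 Tconv arrays (horizontal), with the galectins marked and a dashed line at the median of all genes. Lgals3 lies at -3.66 with 7 genes below it, while Lgals8 and Lgals9 lie within the cloud and Lgals1 just below it at its bright end.

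Other galectin family genes were listed without regard to direction, but with earlier results of these data known. The same holds for the lists that follow, so calls within lists are given as a description. Of 8 listed, 7 were on the array and 4 were kept, while Lgals2, Lgals4 and Lgals12 stayed too low and Lgals6 had no probe set of its own. Lgals7, which encodes galectin-7, a galectin known mainly from stratified epithelia, was lower in cells that started as GFP+. It read 16.5 and 29.0 in Treg mock, against 475 and 340 in Tconv mock, a difference of -3.45 (SE 0.44, limma adjusted p = 0.0096). In scurfy mock it read 75.7 and 36.3, and the difference from Tconv mock was -2.59 (SE 0.44, limma adjusted p = 0.047). On both Treg mock arrays it lay below the array median.

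In Tconv Foxp3 Lgals7 read 287 and 113, against 475 and 340 in Tconv mock (difference -1.08, SE 0.44, limma adjusted p = 0.34). In scurfy Foxp3 it read 46.3 and 45.6, inside the scurfy mock range. The call in Treg mock ended without Treg mock array 2 (-3.68) or either Tconv mock array (-3.22 and -3.68). The call in scurfy mock held in 2 of 10 such fits, those without a Tconv Foxp3 array, and ranged from -3.00 to -2.19. It also ended with no filter (limma adjusted p = 0.11) and with a pseudocount of 1 (limma adjusted p = 0.11).

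Lgals3bp, which encodes a secreted glycoprotein that binds galectin-3, was highest in scurfy cells. It read 1277 and 519 in scurfy Foxp3, against 1880 and 510 in scurfy mock. It read 71.6 and 138 in Treg mock, 51.2 and 148 in Tconv Foxp3 and 99.2 and 319 in Tconv mock. The 4 scurfy arrays lay above the other 6. The scurfy mock difference from Tconv mock was 2.35 (SE 0.77, limma adjusted p = 0.25), which was not called. Lgalsl, a galectin-like gene, read 135 and 194 in Treg mock, against 55.8 and 45.3 in Tconv mock, and was not called either (1.42, SE 0.45, limma adjusted p = 0.17). In this list limma called 1 of 4 lower and none higher in Treg mock and in scurfy mock against Tconv mock. Of all genes, 1.12% and 0.574% were called there in either direction. limma called 0 of 4 in both Foxp3 comparisons and in their difference, beside 0.0883%, 0.0353% and 0% of all genes.

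The sugars that galectins bind are built by glycosyltransferases. A list of 14 genes for N-glycan trimming, branching and extension, with the sugar transporter genes Slc35a2 and Slc35a3 among them, held 13 that were kept. In Treg mock against Tconv mock the median of the 13 was 0.20, beside 0.19 for all genes. There 1 of the 13 was higher and 12 were not called, beside 1.12% of all genes called. It was Mgat5, which adds the branch on which the N-glycan ligands of galectin-3 are extended. Mgat5 read 614 and 555 in Treg mock, against 72.9 and 54.1 in Tconv mock, a difference of 2.93 (SE 0.26, limma adjusted p = 0.0020) that stayed called in all 10 fits without an array.

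Mgat5 read 221 and 231 in scurfy Foxp3, against 123 and 140 in scurfy mock, and 146 and 185 in Tconv Foxp3, so all of these lay between Tconv mock and Treg mock. Its difference from Tconv mock was 0.90 in scurfy mock (limma adjusted p = 0.20) and 1.19 in Tconv Foxp3 (limma adjusted p = 0.16), with SE 0.26 each, and neither was called. B4galt1, which adds galactose, was not called in Treg mock (1.78, SE 0.40, limma adjusted p = 0.079) or in scurfy mock (1.84, SE 0.40, limma adjusted p = 0.11). Besides Mgat5 in Treg mock, none of the 13 was called in any comparison. Their medians were 0.62 in scurfy mock, 0.45 in Tconv Foxp3 and 0.04 in scurfy Foxp3 against scurfy mock. Those of all genes were 0.22, 0.26 and -0.02, and the shares of all genes called were 0.574%, 0.0883% and 0.0353%.

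A further list held 15 genes for O-glycan cores or for adding or removing sugars at glycan ends, all kept. In Treg mock against Tconv mock 2 were higher and 13 not called, beside 1.12% of all genes called (median 0.77, beside 0.19). The same count, 2 higher and 13 not called, was found in scurfy mock, beside 0.574% of all genes called (median 0.75, beside 0.22). Both comparisons share the Tconv mock arrays. In each comparison the genes called from this list were Gcnt1 and St6gal1. Gcnt1 makes core-2 O-glycans, on which galectin-1 ligands are carried. St6gal1 caps galactose with sialic acid, which is known to block galectin-1 binding.

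Gcnt1 read 287 and 349 in Treg mock and 1195 and 296 in scurfy mock, against 24.6 and 33.3 in Tconv mock. The differences were 2.89 in Treg mock (limma adjusted p = 0.041) and 3.78 in scurfy mock (limma adjusted p = 0.021), with SE 0.53 each. In Tconv Foxp3 Gcnt1 read 24.3 and 22.7, close to the array median, and in scurfy Foxp3 421 and 595. All 6 arrays of GFP+ cells lay above the 4 of GFP- cells. The Treg mock call held in 2 of 10 fits, those without a scurfy mock array (2.75 to 3.03 over all 10). The scurfy mock call ended without any of the 4 Tconv arrays (2.80 to 4.76 over all 10). With no filter neither was called (limma adjusted p = 0.10 and 0.069).

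St6gal1 read 1125 and 1810 in Treg mock and 1873 and 393 in scurfy mock, against 27.9 and 57.3 in Tconv mock. The differences were 4.67 in Treg mock (limma adjusted p = 0.016) and 3.95 in scurfy mock (limma adjusted p = 0.047), with SE 0.67 each. It read 410 and 623 in Tconv Foxp3, where the difference from Tconv mock of 3.20 (SE 0.67, limma adjusted p = 0.16) was not called, and 695 and 1434 in scurfy Foxp3. The Treg mock call ended without Treg mock array 2 (4.33) or either Tconv mock array (4.30 and 5.04). The scurfy mock call held in 1 of 10 fits, that without scurfy mock array 2, and ran from 2.85 to 5.06. With no filter neither was called (limma adjusted p = 0.064 and 0.13).

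St6gal1 is also strongly expressed by B cells, so their 6 markers on the array are given here. Their summed intensity was 725 and 1730 in scurfy Foxp3, against 75.6 and 332 in scurfy mock. It was 54.0 and 555 in Treg mock and 286 and 487 in Tconv Foxp3, against 47.6 and 39.3 in Tconv mock. The part of B cells in the St6gal1 values was not tested.

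**Figure D4:**
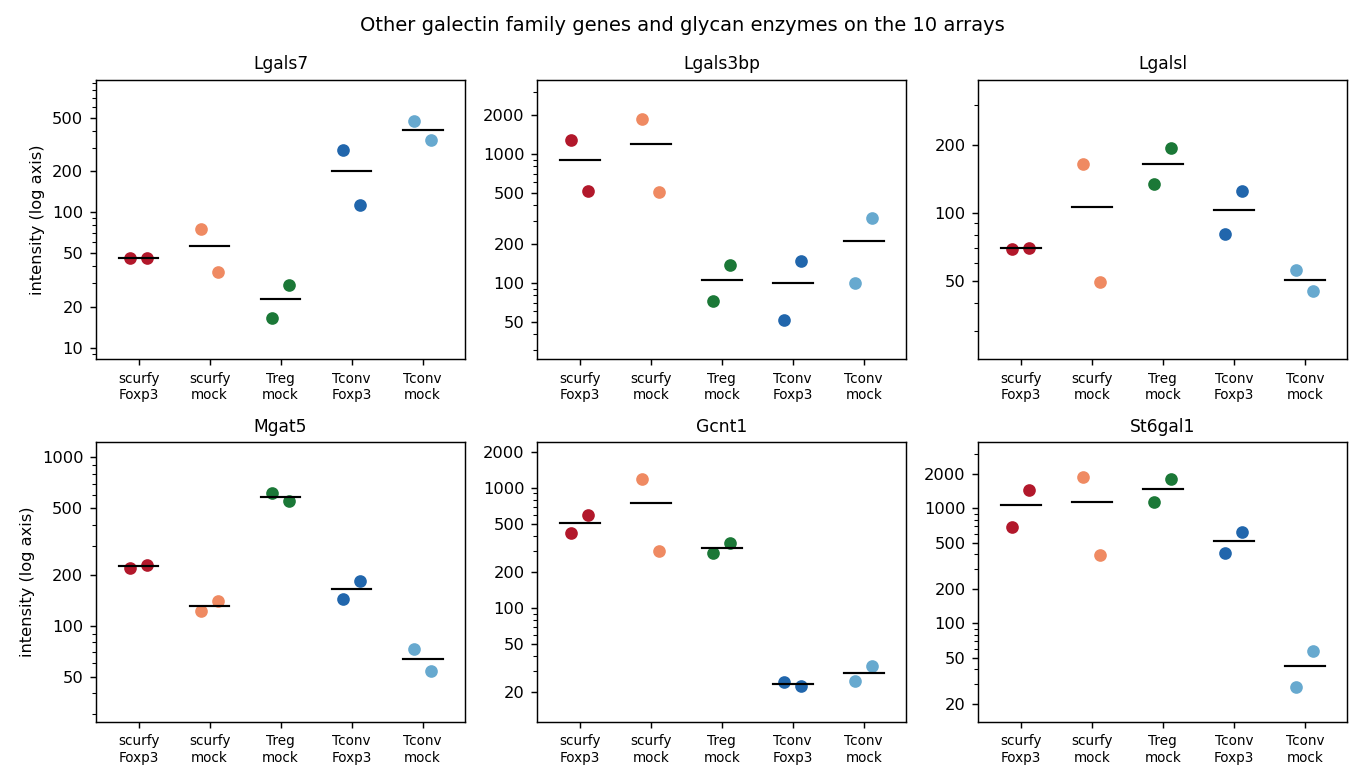
Intensity on each array (points, log axes that differ between panels) with group means (lines) for Lgals7, Lgals3bp, Lgalsl and the glycan enzymes Mgat5, Gcnt1 and St6gal1. Lgals7 is higher in both Tconv groups than in the others, and Gcnt1 reads 287 or more on the 6 arrays of GFP+ cells and 33.3 or less on the 4 of GFP- cells.

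Of 18 surface partners of galectins on T cells, 17 were kept and Cd7 was not. In Treg mock against Tconv mock 1 was higher and 16 were not called, beside 1.12% of all genes called (median 0.39, beside 0.19). It was Cd44, an adhesion receptor for hyaluronan, at 1884 and 1588 in Treg mock, against 648 and 319 in Tconv mock (1.89, SE 0.34, limma adjusted p = 0.040). That call held in 3 of 10 fits without an array, those without a scurfy mock array or without Tconv mock array 1, and ran from 1.39 to 2.38. It also ended under quantile normalization (1.74, limma adjusted p = 0.056) and a common 75th percentile (1.55, limma adjusted p = 0.088). In the other comparisons 0 of 17 were called. Their medians were 0.52 in scurfy mock and 0.22 in Tconv Foxp3 against Tconv mock, and 0.07 in scurfy Foxp3 against scurfy mock. Those of all genes were 0.22, 0.26 and -0.02, and the shares of all genes called were 0.574%, 0.0883% and 0.0353%.

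Havcr2, which encodes TIM-3, a receptor of galectin-9, read 512 and 364 in scurfy Foxp3, against 157 and 490 in scurfy mock. It read 61.3 and 39.2 in Treg mock, 14.0 and 15.1 in Tconv Foxp3 and 30.9 and 92.6 in Tconv mock. The 4 scurfy arrays lay above the other 6. Its difference from Tconv mock was 2.05 in scurfy mock (limma adjusted p = 0.18) and -1.22 in Tconv Foxp3 (limma adjusted p = 0.36), with SE 0.54 each, and neither was called. At most 1.12% of all genes were called in any comparison, and of 9 intracellular partners 5 were kept and 0 called. Of these, Bcl2, the survival factor, had the smallest p in scurfy mock (1.38, SE 0.48, limma adjusted p = 0.26) and Trim16, a ubiquitin ligase that works with galectin-3, in scurfy Foxp3 against scurfy mock (-1.94, SE 0.55, limma adjusted p = 0.87).

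The genes whose log2 profiles over the 10 arrays were most like that of Lgals3 were Mt2, Vim, Mt1, Adap1 and Rhof, with Pearson's r from 0.92 to 0.96. Mt1 and Mt2 encode metallothioneins, which bind zinc, and Vim encodes the intermediate filament vimentin. Mt2 read 103 and 45.1 in Tconv Foxp3, against 461 and 268 in Tconv mock, and Vim read 2952 and 2248 in Tconv Foxp3, against 7324 and 7639 in Tconv mock. For both, the Tconv Foxp3 arrays were the lowest of the series, but both genes were picked by their likeness to Lgals3. The points of each correlation are the same 10 unscaled arrays in 5 groups, and no p is given.

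Vim also stood among the 5 genes most like Lgals1, with Grn, Entpd1, Il2rb and S100a1 (r from 0.91 to 0.94). Grn encodes progranulin, Entpd1 the ectoenzyme CD39 that breaks down ATP, and Il2rb a chain of the interleukin receptor for IL-2. Entpd1 covered 6.00 log2 units over the arrays, so its profile lay 1.49 units (root mean square) from that of Lgals1, against 0.25 for Grn. It read 89.8 and 23.9 in Tconv Foxp3, against 394 and 227 in Tconv mock. Lgals1 and Lgals3 correlated at 0.85 over the 10 arrays, and Lgals3 and Lgals9 at -0.04.

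For Lgals8 the genes were Sit1, Prex1, Arhgap4, Vrk3 and Zfp36 (r from 0.95 to 0.98), with distances of 0.12 to 0.25 log2 units, and for Lgals9 they were Stxbp2, Ldb1, Cnr2, Igtp and Cog4 (r from 0.92 to 0.94). Sit1 is an adaptor that dampens T cell receptor signalling, and Igtp an interferon-induced GTPase. Sit1 read 81.3 and 134 in Treg mock, and 176 and 73.2 on the scurfy mock arrays. Its split between replicates is like that of Lgals8 because it was picked by likeness to Lgals8. Of the genes kept, 78 had r over 0.9 with Lgals8.

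**Figure D5:**
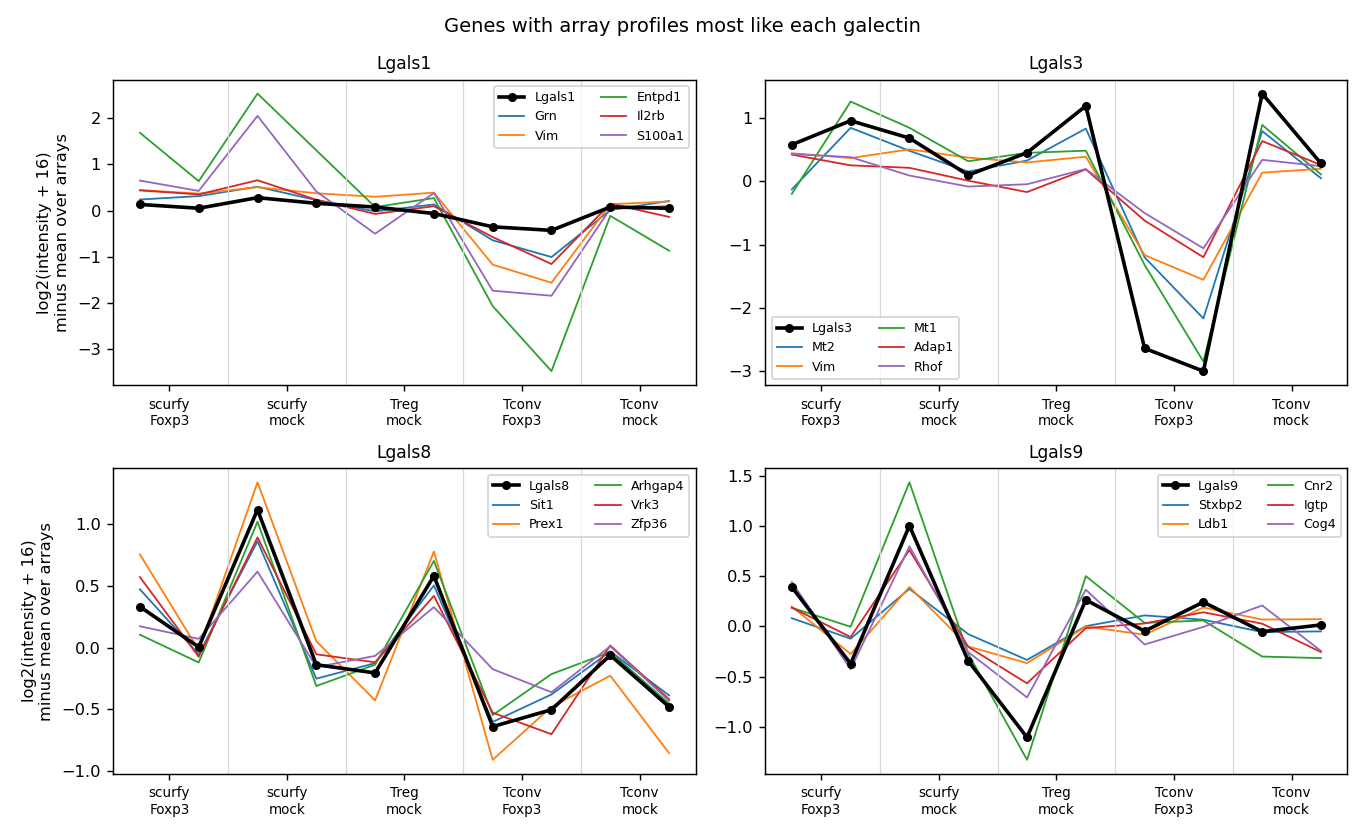
Log2(intensity + 16) minus its mean over the arrays (vertical) for each galectin (black) and the 5 genes with the highest Pearson's r to it (coloured), over the 10 arrays ordered by group (horizontal). The Lgals3 and Lgals1 panels dip at the 2 Tconv Foxp3 arrays, and the Lgals8 and Lgals9 panels peak at scurfy mock array 1.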

How the data were processed

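RNA was amplified and biotin-labelled with a NuGEN kit, per the labels' protocols. The arrays were processed in Affymetrix Expression Console, per the submitters' processing notes. Each deposited value is the intensity the authors obtained for a probe set, on a linear scale. The summary method, the scaling and the version were not given in the sources used here. The number of arrays limits the precision.

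Of 45101 probe sets, 34945 carried 1 symbol in GEO's platform annotation, 932 several, 9160 none, and 64 were controls that were left out. RefSeq changed 0 symbols. The brightest probe set on average stood for a gene. Values were taken as log2(intensity + 16), and the filter kept genes over the array median on 2 or more arrays. limma 3.58.1 in R 4.3.3 (lmFit, eBayes) fitted all 10 arrays in 5 groups, with 5 residual degrees of freedom. Two-sided p-values were adjusted (Benjamini-Hochberg) across the genes of a comparison, with calls under 0.05. The SE comes from this fit, which was tested on simulated data. Those data had the same spread in every group, unlike these arrays, so they do not test the SE under unequal spread.

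Members and lists were chosen with earlier results of these data known. Genes named from lists were those called and those with the smallest p, and the 5 most like a member had the highest Pearson's r. Alternatives comprised quantile normalization, scaling to the 75th percentile, other pseudocounts (1 and 64), other filters (none, or the 75th percentile), averaged or other probe sets, trend and robust eBayes, replicate number as a block, and each array left out in turn. A fit without the 4 scurfy arrays was chosen after seeing the data.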

Additional observations from a re-analysis of the deposited data

How the results depend on the processing

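Apart from leaving out arrays, the alternatives turned the sign of 3 galectin differences, each smaller than its SE: Lgals1 in scurfy mock and Lgals9 in Tconv Foxp3, given above, and the difference of the vector effects for Lgals8, -0.02 and 0.31 under quantile normalization. Lgals3 in Tconv Foxp3 against Tconv mock was -3.05 with a pseudocount of 64, and the difference of the vector effects was then 3.41. Lgals1 in that comparison was -0.56 under quantile normalization, -0.77 with a common 75th percentile, -0.67 with probe sets averaged and -0.88 with the other probe set, and the difference of its vector effects was 0.41, 0.68, 0.45 and 0.57. Lgals1 in Treg mock was -0.41 with a common 75th percentile, -0.15 averaged and -0.25 with the other probe set. In scurfy mock it was 0.075 under quantile normalization, -0.17 with a common 75th percentile and 0.26 with the other probe set, and in scurfy Foxp3 against scurfy mock -0.22 averaged and -0.31 with the other probe set.

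Counts of called genes moved more. In Treg mock the 127 calls (104 higher, 23 lower) became 192 under quantile normalization (109 and 83), 205 with a common 75th percentile (123 and 82), 56 with a pseudocount of 1, 54 with no filter and 200 with trend and robust options. In Tconv Foxp3 the 10 calls (6 and 4) became 7 under quantile normalization (2 and 5), 16 with a common 75th percentile (4 and 12), 3 with no filter, 5 with probe sets averaged, 17 with trend and robust options and 3 without the 4 scurfy arrays. In scurfy mock the 65 calls became 35 and 41 with pseudocounts of 1 and 64, 28 with no filter and 107 with trend and robust options. In scurfy Foxp3 against scurfy mock the 4 calls became 0 with a pseudocount of 1, 2 with the 75th percentile filter and 0 with trend and robust options. The difference of the vector effects had 1 call with those options. The cause was not tested.

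Deviations of same-numbered replicates correlated between -0.17 and 0.18, so the numbers were not used as pairs. With replicate number as a block the calls were 83 in Treg mock, 42 in scurfy mock, 7 in Tconv Foxp3, 0 in scurfy Foxp3 against scurfy mock and 0 in the difference of the vector effects.

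When each array was left out, the lone array of its group was assumed to vary like the other groups. Calls then ran from 17 to 219 in Treg mock, 10 to 234 in scurfy mock, 0 to 19 in Tconv Foxp3, 0 to 48 in scurfy Foxp3 against scurfy mock and 0 to 28 in the difference of the vector effects. In Treg mock the differences ran from -0.13 to 0.013 for Lgals1, -0.57 to 0.54 for Lgals3, 0.07 to 0.85 for Lgals8 and -1.08 to 0.28 for Lgals9. In scurfy mock they ran from 0.09 to 0.22, -0.997 to 0.11, 0.13 to 1.38 and -0.32 to 1.02 for the same genes, and in Tconv Foxp3 from -0.49 to -0.41, -4.21 to -3.11, -0.51 to -0.09 and -0.03 to 0.26. In scurfy Foxp3 against scurfy mock they ran from -0.19 to -0.07, 0.09 to 0.67, -0.95 to 0.31 and -0.99 to 0.35, and for the difference of the vector effects from 0.27 to 0.39, 3.49 to 4.59, -0.65 to 0.61 and -1.11 to 0.24.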

Other observations

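Lgals8 and Lgals9, together with Lgals3bp, had their highest value on the same array. Scurfy mock array 1 read 606 for Lgals8, 913 for Lgals9 and 1880 for Lgals3bp, against 245, 350 and 510 on scurfy mock array 2. Igtp, an interferon-induced GTPase picked above by its likeness to Lgals9, read 6292 and 3221 on these arrays. Prex1 and Arhgap4, picked by likeness to Lgals8, read 1257 and 507, and 899 and 349, on the same arrays. The main Lgals1 probe set also had its highest value on scurfy mock array 1, at 12784 beside 11743 on array 2. The other Lgals1 probe set did not, at 6484 on array 1 and 6717, its highest value, on array 2. Lgals3 read 900 and 595 on them, with its highest value on Tconv mock array 1. The array medians were 28.5 and 24.1. The cause was not tested.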
